A study of Homo sapiens with 4 samples.

Results

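Matrix metalloproteinases (MMPs), the tissue inhibitors that block them (TIMPs) and the related surface protease ADAM17 were followed in spheroid and adherent cultures of 2 human lung cancer cell lines. The set holds 10 genes of the 43622 in each deposited table, found there by gene symbol: MMP1, MMP7, MMP2, MMP14, MMP15, MMP24, TIMP1, TIMP2, TIMP3 and ADAM17. The 4 libraries were A549 spheroids, A549 adherent cells, H1993 spheroids and a library labelled H1993 adherent, with 1 library each. A549 and H1993 are established lines described in the labels as lung epithelial cells, and no treatment or genetic change is given for any of these samples. Spheroids are free-floating cell clusters, called cancer stem cells by the study, whose stated aim was to compare triacylglycerol synthesis between the cultures. Because each line and culture is 1 library, the intervals below cover counting error and nothing of the variation between cultures.

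MMPs are zinc-dependent endopeptidases made as inactive precursors, and together they cut most proteins of the extracellular matrix. MMP1 is an interstitial collagenase, MMP7 is matrilysin, a small protease of epithelial cells, and MMP2 is a gelatinase. MMP14, MMP15 and MMP24 stay bound to the cell membrane, and MMP14 activates the MMP2 precursor in a complex with TIMP2. TIMPs bind the active site of MMPs, and TIMP3, which is held in the matrix, also inhibits ADAM17, the enzyme that releases tumour necrosis factor and several EGF receptor ligands from the cell surface.

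The libraries held between 15331121 and 17681746 exonic reads, so that 3 reads correspond to between 0.170 and 0.196 CPM (counts scaled to a common library size). Across 14759 autosomal genes, the log2 levels of the library labelled H1993 adherent had a Pearson correlation of 0.845 with H1993 spheroids and of 0.947 with A549 adherent cells, where genes are not independent replicates. This library therefore lay closer to the other line than to its own, and each H1993 culture fold of the 10 genes is given beside their fold in H1993 spheroids over A549 spheroids, which does not rest on it. Other genes' H1993 culture folds carry the same limit. The keratins KRT8 and KRT18, markers of simple epithelium, had at least 18583 reads in each library, while SFTPC, a marker of alveolar type II cells, had at most 2. Summed TPM of the 7 epithelial markers was 3615 in A549 spheroids and 6486 in A549 adherent cells. It was 9227 in H1993 spheroids and 2186 in the library labelled H1993 adherent. EPCAM had 4716 and 266 reads in these H1993 libraries, and 308 and 413 in A549 spheroids and adherent cells. KRT19 had 28510 and 666, and 5351 and 1311. NKX2-1 had 0 reads in both A549 libraries, 13 in H1993 spheroids and 12 in the library labelled H1993 adherent. Summed over 4 endothelial markers the level lay between 0.366 and 3.22 TPM (a library-scaled level per exon length), and over 8 fibroblast markers between 9.45 and 35.8 TPM. PECAM1, an endothelial marker, had 129 reads in A549 spheroids and 2 in A549 adherent cells. It had 36 in H1993 spheroids and 7 in the library labelled H1993 adherent. CDH5, another, had 0 and 7 reads in A549 spheroids and adherent cells, and 36 and 37 in the H1993 libraries. Of the fibroblast markers, COL1A2 had 0 to 3 reads, and PDGFRA and PDGFRB had at most 12. LUM had 320 in A549 spheroids and 24 in A549 adherent cells. It had 35 in H1993 spheroids and 339 in the library labelled H1993 adherent. In that order, COL1A1 had 261, 147, 592 and 286 reads, and COL3A1 had 60, 35, 42 and 174. DCN had 6, 0, 22 and 12, and THY1 had 9, 87, 17 and 76. THY1 was thus lower in the spheroids of both lines, and the fibroblast markers did not share a direction. The 6 macrophage and blood markers summed to 141 TPM in A549 spheroids and 35.4 in A549 adherent cells. They summed to 121 in H1993 spheroids and 72.5 in the library labelled H1993 adherent. Most of each sum was CD68, at 131, 25.7, 113 and 49.8 TPM in that order. In A549 spheroids and A549 adherent cells, CD14 had 53 and 74 reads, ITGAM 8 and 24, and LYZ 40 and 2. Of the 6 markers, 5 had at least 10 reads in H1993 spheroids against 3 in each of the other libraries. PTPRC, the pan-leukocyte marker, had 45 reads in H1993 spheroids and 0 in the rest. The part of these markers in the results was not tested, and in such bulk RNA fewer cells of a type and less RNA per cell cannot be told apart.

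MMP7 and MMP24 were lower and MMP1 was higher in the spheroids of both lines, TIMP1 was higher in spheroids of A549, and TIMP3 and MMP15 were higher in those of H1993. TIMP2 and ADAM17 differed by less than 2-fold in every comparison. All 10 genes passed the filter on low counts. A gene was called higher or lower where its scaled exon reads differed at least 2-fold and the 95% counting interval excluded no change. In A549 spheroids against A549 adherent cells, 2 of the 10 genes were higher (MMP1 and TIMP1) and 2 lower (MMP7 and MMP24), where 12.4% of all 15273 kept genes were called higher and 10.3% lower, 22.7% in all. In H1993 spheroids against the library labelled H1993 adherent, 3 genes were higher (MMP1, MMP15 and TIMP3) and 4 lower (MMP7, MMP2, MMP14 and MMP24), where 17% of all genes were called higher and 18% lower, 35% in all. Between the spheroid libraries, H1993 over A549, 2 genes were higher (MMP15 and TIMP3) and 6 lower, where 18% of all genes were called higher and 19.1% lower, 37.1% in all. Between the adherent libraries, H1993 as labelled over A549, 1 gene was higher (TIMP1) and 1 lower (MMP7), where 6.94% of all genes were called higher and 5.49% lower, 12.4% in all. The A549 pair and the comparison of adherent libraries share the A549 adherent library, and the other comparisons share libraries likewise.

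**Figure D1:**
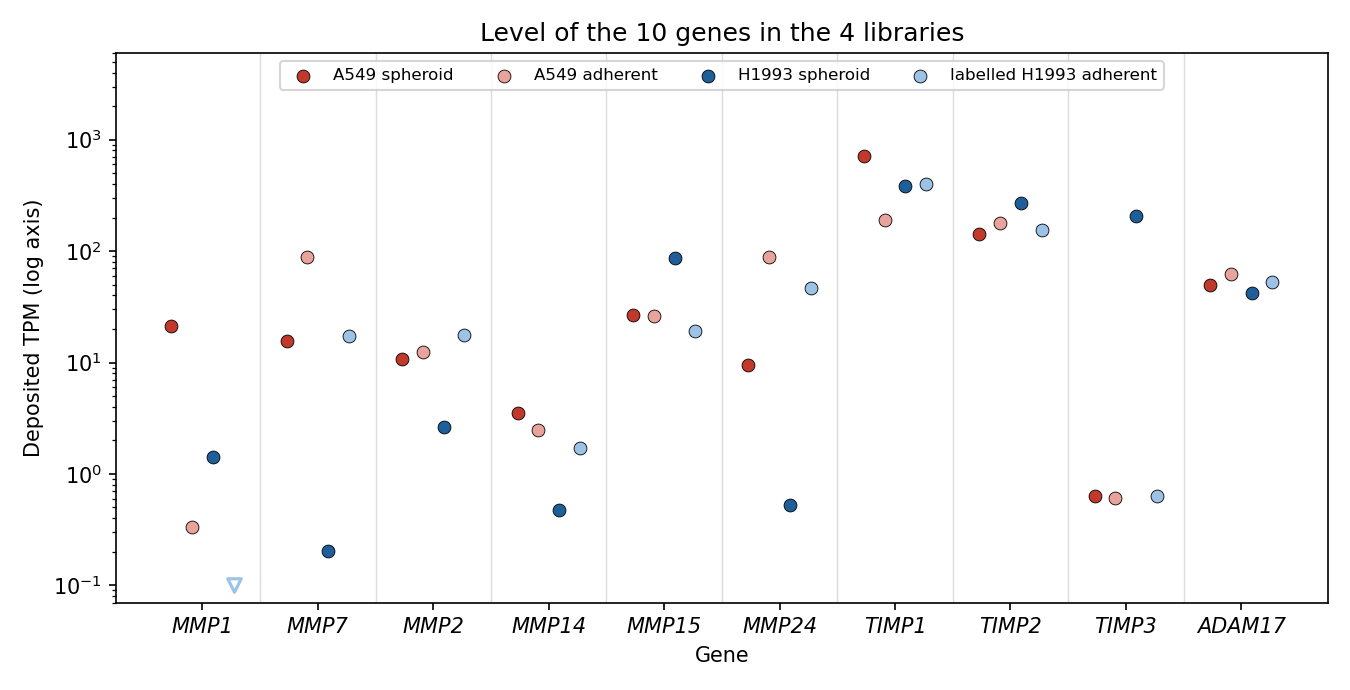
Deposited TPM (log axis) of the 10 genes, 1 point for each library. MMP1, at 0 in the library labelled H1993 adherent, is drawn as an open triangle at the lower edge. TIMP3 stood at 207 TPM in H1993 spheroids and under 1 TPM in the other libraries, while ADAM17 stayed between 42.3 and 62.1 TPM.

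MMP7 was lower in the spheroids of both lines. It had 187 reads (15.5 TPM) in A549 spheroids, against 951 reads (89.0 TPM) in A549 adherent cells, which is 5.27-fold lower, a log2 fold of -2.40 (-2.64 to -2.18). H1993 spheroids held 2 reads of MMP7 (0.20 TPM), against 203 reads (17.1 TPM) in the library labelled H1993 adherent, a log2 fold of -5.54 (-9.54 to -4.61). A549 adherent cells thus stood far above the rest, H1993 spheroids were near 0, and the other libraries lay close together between them. H1993 spheroids were also lower than A549 spheroids, at -5.49 (-9.49 to -4.56), and the library labelled H1993 adherent was lower than A549 adherent cells, at -2.34 (-2.58 to -2.14). Reads that span an exon junction gave the same picture, with 70 in A549 spheroids and 411 in A549 adherent cells, and with 1 in H1993 spheroids and 69 in the library labelled H1993 adherent.

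MMP1 was higher in the spheroids of both lines and close to 0 in adherent cells. It had 219 reads (21.4 TPM) in A549 spheroids, against 3 reads (0.33 TPM) in A549 adherent cells, a log2 fold of 5.42 (4.56 to 8.42). In H1993 spheroids it had 12 reads (1.43 TPM), against 0 reads in the library labelled H1993 adherent. This is 4.54-fold higher when that library is set at a floor of 3 reads. The 95% counting interval of the log2 fold began lower, at 1.66, and had no upper end. Both spheroid libraries thus exceeded their adherent partners, but the H1993 spheroid level was far under that of A549 spheroids, with a log2 fold of -3.88 (-5.05 to -3.24). The adherent libraries, at 0 and 3 reads, could not be told apart at this depth.

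MMP1 and MMP7 belong to a cluster of MMP genes on the long arm of chromosome 11. In the coordinates of the tables (hg38), MMP7 (ENSG00000137673) lies at 102520508 to 102530753 and MMP1 (ENSG00000196611) at 102789920 to 102798160, both on the minus strand. No other gene model overlaps either of them. The interval between them holds MMP20, MMP27, MMP8 and MMP10, and MMP3, MMP12 and MMP13 follow. MMP10, stromelysin-2, ends 9.29 kb from MMP1, and had 107 reads in A549 spheroids against 5 in A549 adherent cells, a log2 fold of 3.91 (3.09 to 6.01), although it did not pass the filter over all libraries and so was not called. In H1993 spheroids MMP10 had 2 reads, against 5 in the library labelled H1993 adherent (-0.70, -4.53 to 1.47). The remaining 6 genes of the cluster had between 0 and 3 reads in every library. YAP1, the coactivator named in the study's title, lies at the edge of the same region and was measured at 2374 reads in A549 spheroids and 1996 in A549 adherent cells (0.19, 0.10 to 0.27), and at 1348 in H1993 spheroids and 2005 in the library labelled H1993 adherent (-0.39, -0.49 to -0.29). BIRC3, an inhibitor of apoptosis between YAP1 and MMP7, was the one neighbour called, with 291 reads in H1993 spheroids and 1069 in the library labelled H1993 adherent (-1.69, -1.89 to -1.51).

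**Figure D2:**
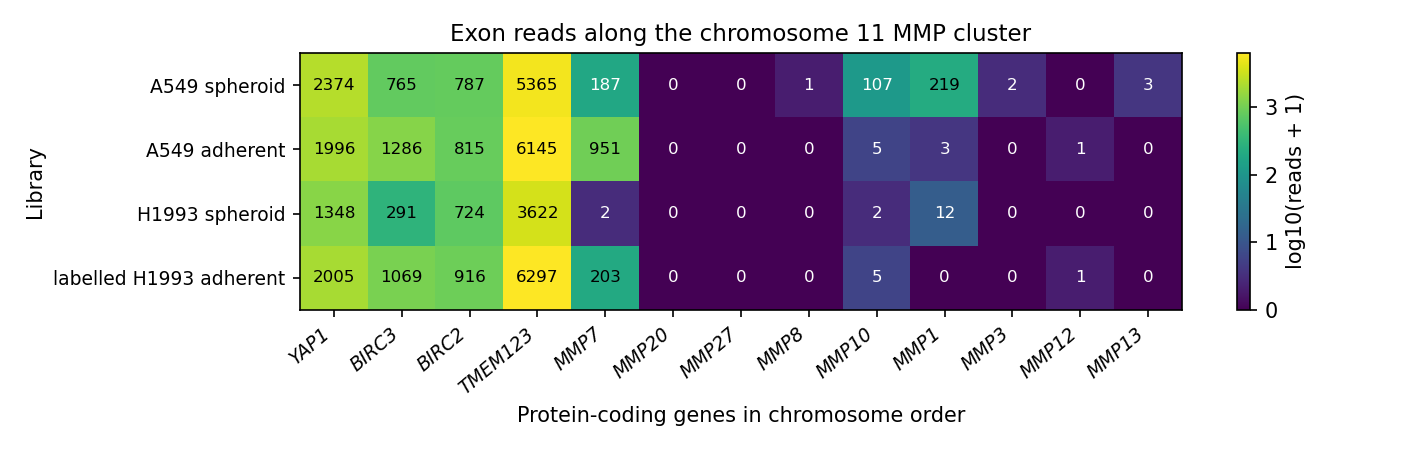
Exon reads of the 13 protein-coding genes from YAP1 to MMP13 in chromosome order, with the count written in each cell and the colour showing log10(reads + 1). MMP10 and MMP1 held 107 and 219 reads in A549 spheroids, while MMP7 held 951 reads in A549 adherent cells.

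Promoter sequences are shown for the 3 genes with the widest spread between libraries that have one in the table used, MMP7, MMP24 and TIMP3. They come from RefSeq (GRCh38.p14), whose table matched 7 of the 10 genes (not MMP1, MMP2 or TIMP2), and they run 5′ to 3′ on the gene's strand up to the first start of the gene in the deposited tables. Capitals mark matches on either strand to 1 of 4 motifs. AP-1, the Fos and Jun dimer, was searched with the letters TGANTCA. The element bound by the general transcription machinery was searched as TATAAA. The letters CTTTGAA stand for the TCF/LEF factors of Wnt signalling. For the TEAD factors, partners of YAP1, the letters were CATTCC.
MMP7, chr11:102530754-102530997, minus strand: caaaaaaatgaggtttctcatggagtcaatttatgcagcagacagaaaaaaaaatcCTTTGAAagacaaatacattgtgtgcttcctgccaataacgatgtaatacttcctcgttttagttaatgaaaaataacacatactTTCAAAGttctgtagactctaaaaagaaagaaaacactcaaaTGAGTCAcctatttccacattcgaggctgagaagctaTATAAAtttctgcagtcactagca
MMP24, chr20:35226440-35226653, plus strand: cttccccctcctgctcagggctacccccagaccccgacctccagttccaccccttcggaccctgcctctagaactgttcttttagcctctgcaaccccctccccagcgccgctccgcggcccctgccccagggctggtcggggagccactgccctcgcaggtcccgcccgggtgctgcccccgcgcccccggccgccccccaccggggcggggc
TIMP3, chr22:32801455-32801700, plus strand: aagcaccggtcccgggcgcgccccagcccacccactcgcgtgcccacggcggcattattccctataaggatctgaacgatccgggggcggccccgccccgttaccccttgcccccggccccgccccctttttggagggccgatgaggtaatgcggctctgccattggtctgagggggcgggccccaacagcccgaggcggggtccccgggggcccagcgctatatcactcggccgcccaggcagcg
In the whole window of 300 bases (250 before the annotated start and 50 after it), MMP7 held the AP-1 letters once, beginning 67 bases before the start, the element of the general machinery once, at 30 bases, and the TCF/LEF letters at 194 and 109 bases, with no match overlapping another. These motifs occurred in 7.71%, 11.5% and 4.43% of the 35116 promoters of the table. The TEAD letters occurred in 14.0% of promoters and, among the 7 matched genes, in ADAM17 alone, 227 bases before its start. MMP24 and TIMP3 held none of the 4 in this window and were rich in CpG, with 37 and 31 CpG pairs against 4 in MMP7 and a median of 14 over all promoters. A match is a description of the letters and not evidence of a bound factor.

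MMP24 was the membrane-bound member that differed most between cultures. MMP24, a protease known mainly from the nervous system (ENSG00000125966, chromosome 20, 35226654 to 35277000, plus strand), had 219 reads (9.56 TPM) in A549 spheroids, against 1797 reads (88.5 TPM) in A549 adherent cells, 8.50-fold lower and a log2 fold of -3.09 (-3.31 to -2.90). It had 10 reads (0.53 TPM) in H1993 spheroids, against 1048 reads (46.6 TPM) in the library labelled H1993 adherent, 77.8-fold lower and a log2 fold of -6.28 (-7.59 to -5.64). Each spheroid library was below both adherent libraries, and H1993 spheroids were also below A549 spheroids, at -4.10 (-5.42 to -3.43). Intronic reads differed alike, with 23 in A549 spheroids and 217 in A549 adherent cells, and with 1 in H1993 spheroids and 115 in the library labelled H1993 adherent. MMP24OS, a gene on the opposite strand whose model spans the whole of MMP24, moved much less, with 613 reads in A549 spheroids and 805 in A549 adherent cells (-0.45, -0.61 to -0.30), and 581 reads in H1993 spheroids and 1060 in the library labelled H1993 adherent (-0.68, -0.83 to -0.54). Whether the counting used strand is not given in the sources used here, so reads of this pair may be shared.

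MMP15 was higher in H1993 spheroids than in any other library. This membrane-bound protease (chromosome 16, 58025566 to 58046901) had 616 reads (26.9 TPM) in A549 spheroids and 534 reads (26.3 TPM) in A549 adherent cells, a log2 fold of 0.14 with an interval that includes no change (-0.03 to 0.31). In H1993 spheroids it had 1644 reads (87.2 TPM), against 432 reads (19.2 TPM) in the library labelled H1993 adherent, a log2 fold of 2.11 (1.96 to 2.27). Against A549 spheroids, the H1993 spheroid level was 2.89-fold higher, at 1.53 (1.40 to 1.67). The 3 remaining libraries lay between 19.2 and 26.9 TPM.

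MMP2 and MMP14, which act in 1 activation pathway, were lower in H1993 spheroids and differed less than 2-fold in A549. MMP2 had 275 reads (10.7 TPM) in A549 spheroids and 282 reads (12.4 TPM) in A549 adherent cells, a log2 fold of -0.10 (-0.34 to 0.15). It had 56 reads (2.66 TPM) in H1993 spheroids, against 443 reads (17.6 TPM) in the library labelled H1993 adherent, a log2 fold of -2.76 (-3.23 to -2.40), and stood at -2.14 (-2.62 to -1.76) against A549 spheroids. MMP14 was scarce everywhere. It had 81 reads (3.50 TPM) in A549 spheroids and 51 reads (2.48 TPM) in A549 adherent cells, a log2 fold of 0.59 (0.08 to 1.14). In H1993 spheroids it had 9 reads (0.47 TPM), against 39 reads (1.71 TPM) in the library labelled H1993 adherent, a log2 fold of -1.74 (-3.16 to -0.86), and the fold against A549 spheroids was -2.81 (-4.23 to -2.06). H1993 spheroids were thus the lowest of the 4 libraries for both genes.

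**Figure D3:**
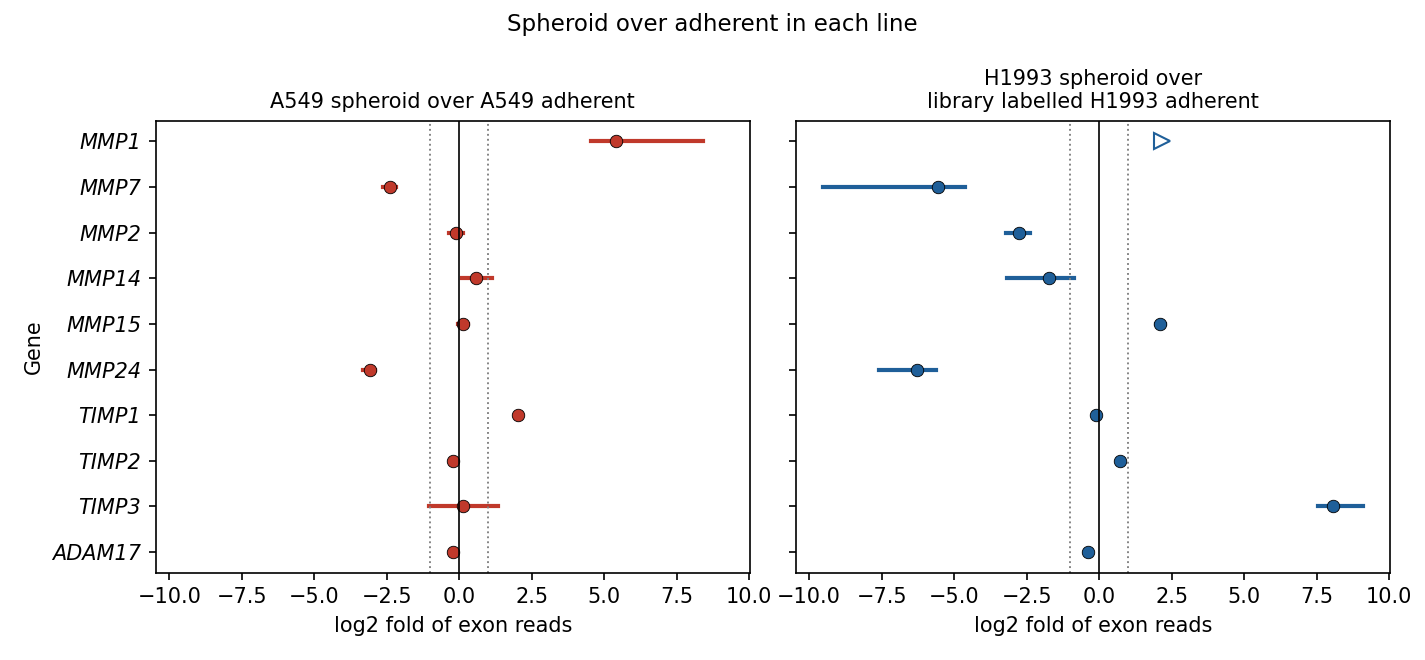
Log2 fold of exon reads, spheroid over adherent, for A549 (left) and for H1993 as labelled (right). Points are folds, bars are 95% counting intervals, dotted lines mark 2-fold, and the open triangle is the lower bound for MMP1, which had 0 reads in the library labelled H1993 adherent. MMP7 and MMP24 lay below the dotted lines in both panels, and TIMP3, at 8.07, lay far out in H1993 but at 0.13 in A549.

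TIMP3 was abundant in H1993 spheroids and nearly absent elsewhere. TIMP3 (ENSG00000100234, chromosome 22, 32801701 to 32863043, plus strand) had 15 reads (0.63 TPM) in A549 spheroids and 13 reads (0.61 TPM) in A549 adherent cells, a log2 fold of 0.13 (-1.03 to 1.33). H1993 spheroids held 4057 reads (207 TPM), against 15 reads (0.64 TPM) in the library labelled H1993 adherent, a log2 fold of 8.07 (7.54 to 9.10). The fold of the library labelled H1993 adherent over A549 adherent cells was 0.07 (-1.09 to 1.27), and the contrast between H1993 spheroids and A549 spheroids, at 8.01 (7.47 to 9.04), had nearly the same size. In H1993 spheroids TIMP3 also had 337 junction reads and 154 intronic reads, against 1 and 1 in the library labelled H1993 adherent. The gene lies inside SYN3, a synapsin gene on the other strand, which had 1 read in H1993 spheroids and 0 in every other library. TIMP3 ranked 677th of 43622 genes by TPM in H1993 spheroids and 16288th in the library labelled H1993 adherent. Of the 6 macrophage and blood markers, PTPRC and CSF1R had 45 and 41 reads in H1993 spheroids (1.26 and 1.87 TPM), against 0 and 1 in the library labelled H1993 adherent. CD68 and LYZ were called higher, while CD14 was called lower, with 29 reads in H1993 spheroids and 214 in the library labelled H1993 adherent (-2.62). ITGAM had 2 and 10 reads there. PTPRC, CSF1R and ITGAM did not pass the filter on low counts and so were not called. The part of these markers in the TIMP3 level was not tested.

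TIMP1 was higher in A549 spheroids. This inhibitor, which also acts as a growth factor (chromosome X, 47582313 to 47586789), had 5740 reads (718 TPM) in A549 spheroids, against 1359 reads (192 TPM) in A549 adherent cells, 4.04-fold higher and a log2 fold of 2.01 (1.93 to 2.10). It ranked 139th by TPM in A549 spheroids and 615th in A549 adherent cells. In H1993 spheroids it had 2543 reads (387 TPM), against 3128 reads (398 TPM) in the library labelled H1993 adherent, a log2 fold of -0.11 (-0.19 to -0.04). The intermediate level of both H1993 libraries placed the library labelled H1993 adherent 2.10-fold above A549 adherent cells, at 1.07 (0.98 to 1.17), and H1993 spheroids below A549 spheroids, at -1.06 (-1.12 to -0.99). Intronic reads of TIMP1 did not differ in the same way as its exonic reads, with 13 in A549 spheroids and 18 in A549 adherent cells, a log2 fold of -0.52 (-1.68 to 0.58). SYN1, the synapsin gene that surrounds TIMP1 on the other strand, had between 1 and 4 reads.

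TIMP2 and ADAM17 differed by less than 2-fold in all 4 comparisons. TIMP2, the cofactor of MMP2 activation, had 4180 reads (143 TPM) in A549 spheroids and 4666 reads (180.0 TPM) in A549 adherent cells, a log2 fold of -0.22 (-0.28 to -0.16). It had 6447 reads (268 TPM) in H1993 spheroids and 4458 reads (155 TPM) in the library labelled H1993 adherent, a log2 fold of 0.72 (0.66 to 0.77), and H1993 spheroids stood at 0.74 (0.69 to 0.80) against A549 spheroids. ADAM17 had 1400 reads (49.1 TPM) in A549 spheroids and 1568 reads (62.1 TPM) in A549 adherent cells, a log2 fold of -0.23 (-0.33 to -0.12). The same gene had 990 reads (42.3 TPM) in H1993 spheroids and 1466 reads (52.4 TPM) in the library labelled H1993 adherent, a log2 fold of -0.38 (-0.50 to -0.27), and H1993 spheroids stood at -0.38 (-0.50 to -0.26) against A549 spheroids. These intervals exclude no change by counting error alone, and the variation between cultures of 1 line is not known.

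Summed per exon length, the 3 TIMP genes outweighed the 6 MMP genes of the set in every library, and their ratio differed most in A549. These sums cover the genes of the set alone. The 3 TIMP genes together stood at 861 TPM and the 6 MMP genes at 87.6 TPM in A549 spheroids, a ratio of 9.83, against 372 and 219 TPM in A549 adherent cells, a ratio of 1.70. In H1993 spheroids the sums were 862 and 92.5 TPM, a ratio of 9.32, against 554 and 102 TPM in the library labelled H1993 adherent, a ratio of 5.42. The total hides a change of members. MMP15 made up 94.3% of the MMP sum in H1993 spheroids and 18.8% in the library labelled H1993 adherent, where MMP24 held 45.6%. In A549 spheroids the largest shares were those of MMP15 (30.7%) and MMP1 (24.5%), against MMP7 (40.6%) and MMP24 (40.4%) in A549 adherent cells. TIMP1 supplied 83.3% of the TIMP sum in A549 spheroids and 51.5% in A549 adherent cells, and in H1993 spheroids TIMP3 supplied 24.0%. Among the genes left out were MMP17 (32.8 TPM), MMP28 (23.4) and MMP10 (11.7) in A549 spheroids, where MMP17 exceeded each MMP of the set. They stood at 13.0, 11.6 and 0.62 TPM in A549 adherent cells. In H1993 spheroids MMP17 stood at 24.6 and MMP28 at 10.6 TPM, against 23.1 and 1.17 in the library labelled H1993 adherent. TIMP4, an inhibitor also left out, had 32.9 TPM in A549 spheroids and 26.6 in A549 adherent cells. It had 2.27 in H1993 spheroids and 3.09 in the library labelled H1993 adherent. TFPI2, from the further inhibitors below and added after its values were seen, had 169 TPM in A549 spheroids and 523 in A549 adherent cells. TFPI2 had 1169 in H1993 spheroids and 573 in the library labelled H1993 adherent. The ratios and shares would differ with such genes included. RNA levels do not give the amount of active enzyme, which was not measured here.

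**Figure D4:**
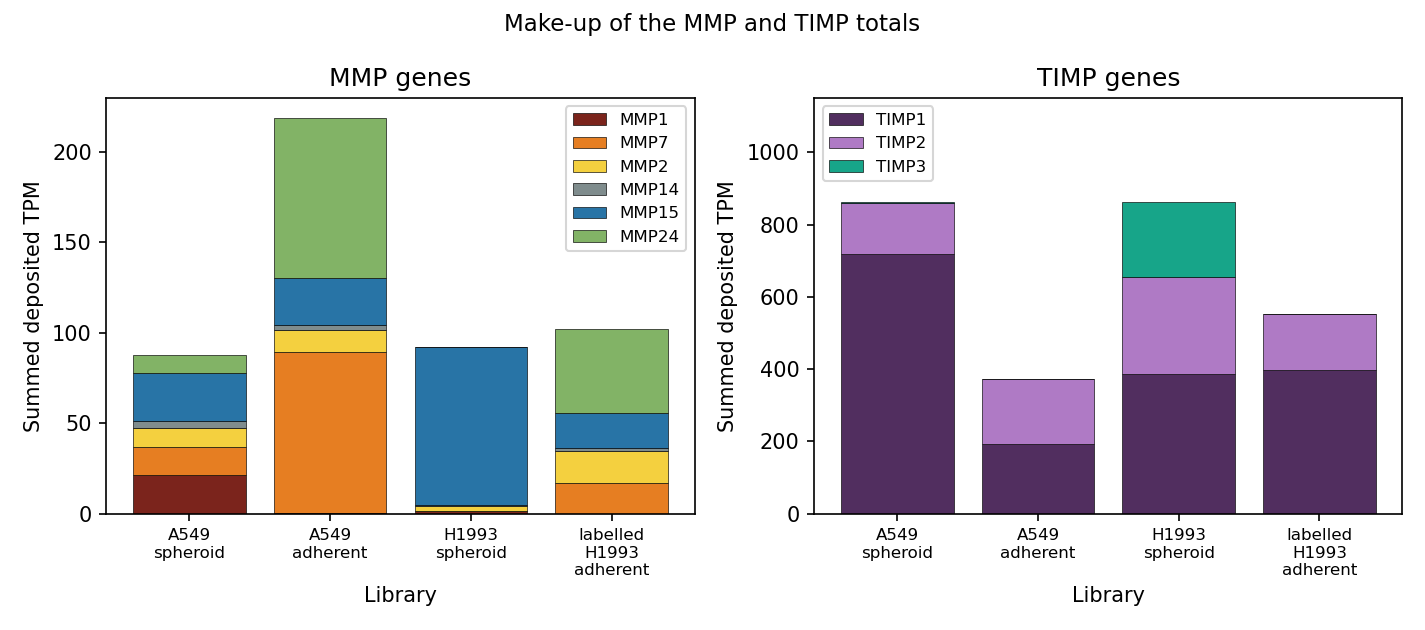
Summed deposited TPM of the 6 MMP genes (left) and of the 3 TIMP genes (right) in each library, stacked by gene. The MMP sum was 219 TPM in A549 adherent cells and between 87.6 and 102 TPM in the other libraries, and in H1993 spheroids MMP15 formed nearly the whole bar.

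Among 17 other MMP genes, 5 passed the filter on low counts. Of these, 2 were higher and 0 lower in A549 spheroids, where 22.7% of all kept genes were called. Against the library labelled H1993 adherent, 1 was higher and 1 lower in H1993 spheroids, where 35% of all kept genes were called. MMP28, epilysin, was higher in both lines, with 347 reads in A549 spheroids and 153 in A549 adherent cells (1.11), and 129 reads in H1993 spheroids and 17 in the library labelled H1993 adherent (2.96). MMP17, anchored to the membrane by a lipid, had 681 reads in A549 spheroids and 239 in A549 adherent cells (1.44), and 421 in H1993 spheroids and 471 in the library labelled H1993 adherent (0.02). MMP16, another membrane-bound member, had 19 reads in H1993 spheroids and 377 in the library labelled H1993 adherent (-4.00), with 7 in A549 spheroids and 15 in A549 adherent cells. In H1993 spheroids over A549 spheroids, MMP28 stood at -1.30, MMP17 at -0.57 and MMP16 at 1.33, so for MMP28 and MMP16 the sign was opposite to that of the H1993 culture fold. The median log2 fold of the 5 genes was 0.55 in A549 and 0.02 in H1993, beside -0.0039 and 0 over all kept genes.

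Of 11 further protease inhibitors, 8 passed the filter. In the A549 pair 2 were higher and 2 lower (median 0.04), where 22.7% of all kept genes were called. In the H1993 pair 4 were higher and 1 lower (median 1.09), where 35% of all kept genes were called. SERPINE2, which blocks thrombin and urokinase, had 14013 reads in A549 spheroids and 1365 in A549 adherent cells (3.29, 3.22 to 3.38), and 4433 in H1993 spheroids and 991 in the library labelled H1993 adherent (2.34, 2.25 to 2.45). SERPINB5, maspin, was also higher in both, with 52 reads in A549 spheroids and 11 in A549 adherent cells, and 518 in H1993 spheroids and 115 in the library labelled H1993 adherent (2.33). RECK, a membrane-anchored inhibitor of MMP2, MMP9 and MMP14, had 21 reads in H1993 spheroids and 237 in the library labelled H1993 adherent (-3.20), with 131 in A549 spheroids and 189 in A549 adherent cells (-0.58). In H1993 spheroids over A549 spheroids, SERPINE2 stood at -1.54, opposite in sign to its culture folds, SERPINB5 at 3.38 and RECK at -2.42.

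Of 15 genes listed as activators and receptors of MMPs, LRP1 and the tight junction gene CLDN1 among them, 13 were kept. The A549 pair had 3 higher and 2 lower (median 0.60), beside 22.7% of all kept genes called. The H1993 pair had 6 higher and 1 lower (median -0.11), beside 35% of all kept genes called. The 4 listed genes with the largest folds were serine proteases. KLK6, a kallikrein, had 1962 reads in H1993 spheroids and 113 in the library labelled H1993 adherent (4.28, 4.03 to 4.59), with 0 in A549 spheroids and 1 in A549 adherent cells. HPN, hepsin, stood at 5.28 (4.76 to 6.20) and ST14, matriptase, at 3.62 (3.29 to 4.06) in the H1993 pair. PLAU, urokinase, the activator of plasminogen, was lower there, with 70 reads in H1993 spheroids and 713 in the library labelled H1993 adherent (-3.13, -3.54 to -2.81), and had 2033 in A549 spheroids and 1651 in A549 adherent cells (0.24). H1993 spheroids over A549 spheroids gave 6.73 for HPN, 6.79 for ST14 and -4.71 for PLAU.

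Counts for the relatives, partners and substrates of ADAM17 are read against the 22.7% of all genes called in the A549 pair and the 35% called in the H1993 pair. Of 8 other ADAM proteases 7 were kept, with 1 higher and 2 lower in the A549 pair and 3 higher and 2 lower in the H1993 pair. ADAM8, of white blood cells and tumours, had 1447 reads in H1993 spheroids and 133 in the library labelled H1993 adherent (3.61), and ADAM15 stood at 1.33 there. ADAM28, at 1.16 in A549 and 2.52 in H1993, was higher in both pairs, and ADAM12, at -1.30 and -1.52, lower in both. All 6 genes listed as ADAM17 partners were kept, with 0 higher and 1 lower in each pair. RHBDF2, an iRhom that carries ADAM17 to the surface, was lower in A549 spheroids (-1.15), and TSPAN5, a tetraspanin, in H1993 spheroids (-1.49). RHBDF1 and FRMD8, at 0.19 and 0.84 in A549 and at 0.71 and 0.36 in H1993, stayed under 2-fold. Of 14 substrates 11 were kept, with 3 higher and 1 lower in A549 (median 0.73) and 6 higher and 3 lower in H1993 (median 1.58). TNFRSF1B, a receptor of tumour necrosis factor, had 1269 reads in H1993 spheroids and 25 in the library labelled H1993 adherent (5.73, 5.28 to 6.48), and 16 in A549 spheroids and 3 in A549 adherent cells (1.80, 0.55 to 4.77). L1CAM, an adhesion molecule, stood at 2.12 in A549 and 2.59 in H1993, and TGFA, an EGF receptor ligand, at 0.85 and 2.61. JAM3, a junction protein, was lower in both, with 2 reads in H1993 spheroids and 152 in the library labelled H1993 adherent (-5.13, -9.12 to -4.19), and 14 in A549 spheroids and 79 in A549 adherent cells (-2.40). In H1993 spheroids over A549 spheroids, ADAM8 stood at 3.82, ADAM15 at 1.31, ADAM28 at -1.74 and ADAM12 at -0.36. The same comparison gave 1.52 for RHBDF2, -2.15 for TSPAN5, 6.26 for TNFRSF1B, -0.86 for L1CAM, 0.10 for TGFA and -1.93 for JAM3, so ADAM28 and L1CAM differed in sign from their culture folds.

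Over both lines together, no gene of the set passed edgeR's main test of culture or of line, run with the filter on low counts. DESeq2 called 4 of the 10 genes for culture and 3 for line. With line and culture as terms, edgeR's quasi-likelihood test left 1 residual degree of freedom and called 0 of 15273 genes for either term (percent called 0), although 1258 genes for culture and 784 for line had an unadjusted p under 0.05. The same terms in DESeq2 called 335 genes higher and 256 lower in spheroids. Spheroid over adherent, the lowest edgeR adjusted p-values in the set belonged to the genes with fitted log2 folds of 6.15 for MMP1 (edgeR adjusted p = 0.33), -4.64 for MMP24 (edgeR adjusted p = 0.34) and -3.91 for MMP7 (edgeR adjusted p = 0.45), each with the same direction in both lines. DESeq2 gave adjusted p-values of 0.00036 for MMP1, 6.8e-07 for MMP24 and 0.00029 for MMP7. TIMP3 had a fitted fold of 4.52 (edgeR adjusted p = 0.73; DESeq2 adjusted p = 0.0063), which rests on H1993 alone, since its A549 fold was 0.13. For H1993 over A549, the lowest adjusted p-value in edgeR was 0.55, for MMP1, and DESeq2 gave adjusted p-values of 0.037 for MMP1, 0.00039 for MMP7 and 0.0093 for TIMP3. Without the library labelled H1993 adherent the model has no residual degree of freedom, and the culture folds are those of the A549 pair given above. With 1 library per line and culture, a difference between the lines in their response to culture was not tested. That difference is the residual of these tests, which therefore do not measure variation between cultures of 1 line.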

How the data were processed

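Total RNA of 4 cultures, 1 library each, was made into stranded mRNA libraries amplified by PCR, per the labels' protocols. Groups are the line and culture named in the labels. Per the submitters' processing notes the build was hg38; no source used here names the aligner, the counting program or the annotation release. The authors deposited read counts per gene (gene, exon, junction and intron reads) and TPM and RPKM scaled by exon length; RPKM entered no comparison. All 10 gene IDs were in GENCODE release 29, 9 with the same span.

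Total exon counts were filtered with filterByExpr and scaled by TMM in edgeR 4.0.16 (R 4.3.3), with a prior count of 2 for log2 folds. Fold intervals are exact Clopper-Pearson intervals (95%) of the 2 counts; reads were taken as independent, although PCR copies cannot be told from molecules. A library with 0 reads was set at 3 reads to give a fold, which is not the lower end of the counting interval. TPM served for levels between genes, with no pseudocount. Culture and line were tested with glmQLFit and glmQLFTest, Benjamini-Hochberg adjusted, and with DESeq2 1.42.0 as an alternative. The scripts were tested on simulated data.

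The members and lists were chosen with earlier results of these data known. Named genes were the members, up to 4 genes per list with the largest fold in either culture pair (at least 100 reads in the higher library), overlapping genes, the chromosome 11 cluster and, per member, the 2 genes nearest in centred log2 CPM. With line and culture as terms, p-values rest on 1 residual degree of freedom. It holds the difference between the 2 lines in their culture folds, with variance pooled over genes. These p-values do not measure variation between cultures of 1 line.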

Additional observations from a re-analysis of the deposited data

Results flagged for a closer look

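Among the members and listed genes, cell type markers included, 4 listed genes were called in opposite directions in the 2 lines. This difference between lines was not tested. The share of all kept genes called in opposite directions was not computed, so the count of 4 has no background to be read against. SPOCK1, a testican proteoglycan, had 35 reads in A549 spheroids and 87 in A549 adherent cells, a log2 fold of -1.33 (-1.99 to -0.80), and 792 reads in H1993 spheroids and 234 in the library labelled H1993 adherent, a log2 fold of 1.93 (1.73 to 2.16). CLDN1, a tight junction protein, had 892 reads in A549 spheroids and 1821 in A549 adherent cells, a log2 fold of -1.09 (-1.21 to -0.98), and 5881 reads in H1993 spheroids and 2339 in the library labelled H1993 adherent, a log2 fold of 1.51 (1.44 to 1.58). The keratin KRT18 had 27256 reads in A549 spheroids and 54346 in A549 adherent cells, a log2 fold of -1.06, and 42450 reads in H1993 spheroids and 18583 in the library labelled H1993 adherent, a log2 fold of 1.38. LUM, the matrix proteoglycan lumican, had 320 reads in A549 spheroids and 24 in A549 adherent cells, a log2 fold of 3.57, and 35 reads in H1993 spheroids and 339 in the library labelled H1993 adherent, a log2 fold of -3.03. In all 4 genes the H1993 fold rests on the library labelled H1993 adherent. Against A549 spheroids, H1993 spheroids stood at 4.54 for SPOCK1, 2.84 for CLDN1, 0.76 for KRT18 and -3.01 for LUM. CLDN1, KRT18 and LUM were not named by the rule for listed genes and were added after their values were seen.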

How the results depend on the processing

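Of 320 pair folds of the members recomputed under other scalings, filters, prior counts and kinds of reads, 319 stayed on the same side of the 2-fold rule and 0 changed direction where called. The exception was TIMP1 in H1993 spheroids over A549 spheroids, at -0.97 with scaling by library size alone, which moved the median of all genes in the A549 pair to -0.11. Counts of members and of genes called in each pair stayed within 1.5 times. The tests over both lines depended on tool and filter. For culture, DESeq2 called 335 genes higher and 256 lower, and edgeR with no filter on low counts called 127 higher and 46 lower, where edgeR with the filter called 0. For line the numbers were 191 and 181 with DESeq2 and 115 and 75 with no filter. Over 7 alternatives the adjusted p of the culture term ran from 0.00036 to 0.62 for MMP1, from 6.8e-07 to 0.62 for MMP24, from 0.00029 to 0.69 for MMP7 and from 0.0063 to 0.75 for TIMP3; that of the line term ran from 0.037 to 0.999 for MMP1, from 0.00039 to 0.999 for MMP7 and from 0.0093 to 0.99999 for TIMP3. Of the member tests under these alternatives, 131 kept the outcome of the main edgeR test. Another 9 passed where it did not, those of DESeq2 included. The cause of this dependence was not tested. In CPM, not scaled by length, the ratio of TIMP to MMP sums was 6.22 in A549 spheroids and 1.67 in A549 adherent cells, and 7.53 in H1993 spheroids and 3.51 in the library labelled H1993 adherent. The labels carry no replicate numbers, so line is the block that pairs the cultures in the tests above, and within a line there was nothing to pair. Depth limits MMP1, MMP7, MMP14 and MMP24 in H1993 spheroids, which had 2 to 12 reads, and MMP1 in both adherent libraries.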

Other observations

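Of 13 AP-1 and ETS transcription factor genes, all kept, 1 was higher and 2 lower in A549 spheroids (median 0.09). Against the library labelled H1993 adherent, 0 were higher and 5 lower in H1993 spheroids (median -0.69). Over all kept genes, 22.7% were called in the A549 pair and 35% in the H1993 pair. ETS1 was lower in both, with 161 reads in A549 spheroids and 457 in A549 adherent cells (-1.56, -1.84 to -1.31), and 48 in H1993 spheroids and 575 in the library labelled H1993 adherent (-3.35, -3.86 to -2.97). FOS, at 0.64 in A549 and -1.79 in H1993, FOSB, at 0.39 and -2.50, and ELK3, at -0.47 and -2.16, were lower in the H1993 pair. In H1993 spheroids over A549 spheroids, ETS1 stood at -1.59, FOS at -0.99, FOSB at -1.53 and ELK3 at -1.56.

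Of 18 ADAMTS proteases, which cut proteoglycans and procollagens, 10 were kept. The A549 pair had 3 higher and 2 lower (median -0.44), beside 22.7% of all kept genes called. The H1993 pair had 2 higher and 4 lower (median -0.33), beside 35% of all kept genes called. ADAMTS12 was lower in both, with 40 reads in A549 spheroids and 207 in A549 adherent cells (-2.38), and 19 in H1993 spheroids and 176 in the library labelled H1993 adherent (-2.91). ADAMTS15 and ADAMTS10 stood at -4.12 and -2.24 in H1993 and at -0.88 and -0.44 in A549, and ADAMTS13, which cuts von Willebrand factor, at 0.07 in H1993 and 1.19 in A549. In H1993 spheroids over A549 spheroids these stood at -0.89 for ADAMTS12, -1.68 for ADAMTS15, -1.35 for ADAMTS10 and -1.14 for ADAMTS13.

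Likeness over the 4 libraries was measured as the distance between log2 CPM centred on each gene's mean. Nearest to MMP1 were C2CD4B (0.35) and NTSR1 (0.55), nearest to MMP7 were EPB41L4A (0.81) and NRP2 (1.18), and nearest to MMP24 were ATP10A (0.67) and NRP2 (0.69). PSG5 (1.44) and IL7R (1.64) lay nearest to TIMP3, with 4066 and 4583 reads in H1993 spheroids and 10 and 48 in the library labelled H1993 adherent. The genes nearest to MMP15 were DUSP16 (0.081) and KIAA1958 (0.14), and those nearest to TIMP1 were AKNAD1 (0.12) and MST1 (0.13). For MMP2 they were AC008915.2 (0.10) and DNAJB5 (0.11), for MMP14 ZSCAN31 (0.13) and CD27-AS1 (0.17), for TIMP2 PLXNB2 (0.039) and TRAPPC10 (0.048), and for ADAM17 NFE2L2 (0.037) and MRPL52 (0.049). With 4 libraries many genes share a pattern, and these distances carry no test.

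Other gene models overlap MMP2, TIMP2 and ADAM17 as well. Those inside MMP2 had 0 reads in every library, and those inside TIMP2 had at most 13, including CEP295NL on the same strand. IAH1, an esterase that overlaps the end of ADAM17 on the other strand, had 1119 reads in A549 spheroids and 829 in A549 adherent cells (0.37), and 588 in H1993 spheroids and 909 in the library labelled H1993 adherent (-0.44).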
